A study of Homo sapiens and Mus musculus with 18 samples.

Results

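The response of BL41, a human cell line from a Burkitt lymphoma, to X-rays was described by 6 of the 18 libraries of the series, 3 of irradiated and 3 of sham-handled cells, chosen by their labelled line and treatment. All 15069 rows of the BL41 table were compared, from the single libraries and not from the authors' averages. Irradiated cells received 5 Gy of X-rays from a clinical linear accelerator, and sham cells stood at room temperature outside the incubator over the same period. Both groups were BL41 at passage 5 to 10, had been resuspended 6 h before exposure, and gave total RNA for sequencing 12 h after it. Separate cultures are not stated in the labels, and a p-value therefore reflects the scatter among these libraries, which could be technical. The deposited values are logarithms, read here as log2, centred within each replicate number (1 to 3), so they hold differences between libraries and no level of expression, and the depth is unknown.

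As background, ionizing radiation breaks DNA, and the checkpoint kinases ATM and CHEK2 relay the damage to factors that stop the cell cycle, among them the cyclin-dependent kinase inhibitor p21. Transcripts of the replication fork, of deoxynucleotide synthesis and of histones are made mainly around S phase, and many are targets of E2F transcription factors. Damage also activates NF-kB, whose targets in B cells include chemokines, cytokines and the feedback inhibitor A20.

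After X-rays the chemokine and cytokine genes CCL5, CCL17, CCL22, CCL3, IL32 and EBI3 rose, with HMOX1, CDKN1A and 14 lysosomal genes, and genes of the replication fork, of deoxynucleotide supply and of histones fell. In all, 728 rows rose and 78 fell with limma at an adjusted p under 0.05 (n = 3 libraries per group), which is 5.35% of rows in all, 4.83% upward and 0.518% downward. The fit took in the 3 proton libraries of BL41 to estimate the spread. It did not count the mean per replicate number that the centring had removed, so its p-values are too small in general. They are not so in every row, since some rows had a smaller p once the replicate number was in the model. The RNA is of bulk cultures, in which fewer cells of a kind and less RNA per cell cannot be told apart. The words rose and fell are used below only of rows past that threshold, and a difference is always X-rays minus sham on the log2 scale, with its standard error after ±. Upward calls had a median difference of 0.50 and 28 of them exceeded 1, while downward calls had a median of −0.49 and 6 lay beyond −1.

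The number of calls rested on the model. With the 6 sham and X-ray libraries alone, limma called 0 rows (lowest adjusted p = 0.0898, and 2908 rows at an unadjusted p under 0.05). When the replicate number was a block in the model, limma called 0 rows (lowest adjusted p = 0.0718, and 2428 rows at an unadjusted p under 0.05), and 64 rows (0.425%; 57 upward and 7 downward) had an adjusted p under 0.1, a limit chosen after the values were seen. All 64 were among the 806 called without the block, and each of the 806 had the same sign in all 3 numbers. Passing the threshold selects for a large difference beside the spread. Equal signs, and groups that do not overlap in the called genes described below, were therefore largely set by that selection. Without X-ray library 1 the count was 0, and without sham library 3 it was 48.

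The median difference of all rows was 0.09, and it was 0.06, 0.19 and 0.03 in numbers 1, 2 and 3. When the libraries were rescaled to a common trimmed mean, which set that median to 0.00, 217 rows were called upward and 117 downward (1.44% and 0.776%), so the upward share of calls went from 90.3% to 65%. Of these, 291 were called in both scalings. Quantile normalization left 74 upward and 55 downward, an upward share of 57.4%. None of the called ones among the 203 genes named by rule turned its direction in either scaling. Called genes were selected for a large difference beside the spread, so a turn was unlikely. Across all rows the steps of the 3 numbers were weakly alike (Pearson r of 0.151, 0.224 and 0.0215 for numbers 1 and 2, 1 and 3, and 2 and 3), a description across genes, which are not independent. The 13 mitochondrially encoded genes had medians of −0.13, 0.69 and −0.17 in numbers 1 to 3, which sets number 2 apart, and their part in the results was not tested.

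**Figure D1:**
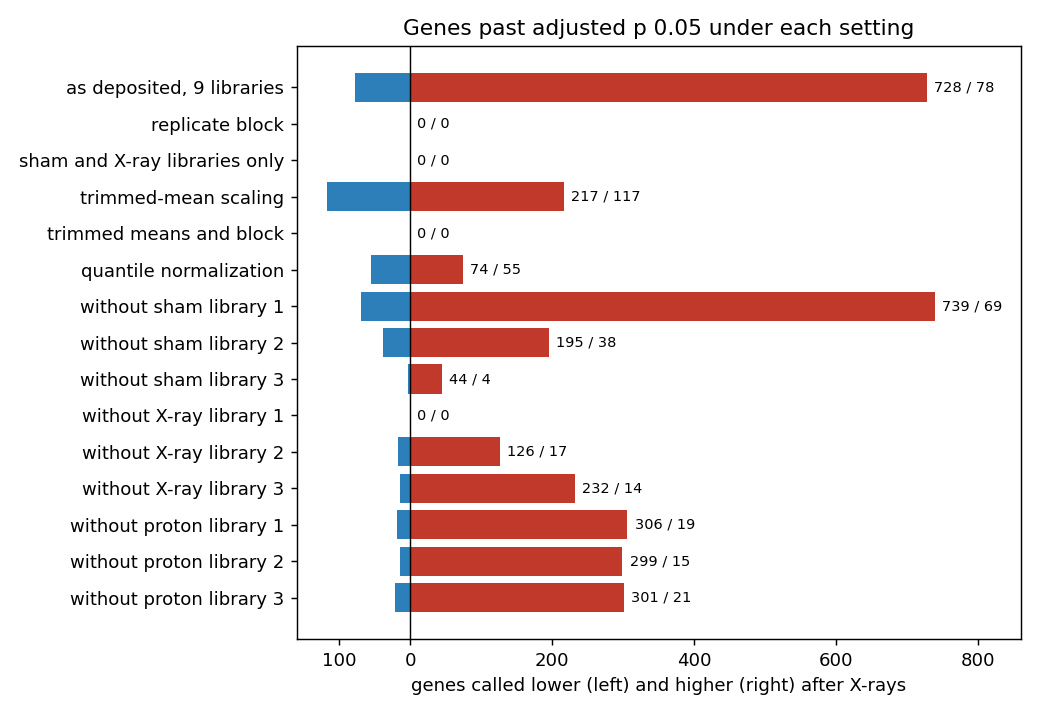
Number of BL41 genes called higher (red, to the right) and lower (blue, to the left) after X-rays by limma at an adjusted p under 0.05, for the values as deposited and under 14 other settings. The bars run from 0 with the replicate block, with sham and X-ray libraries alone and without X-ray library 1, to 728 and 78 with the values as deposited and 739 and 69 without sham library 1.

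B-cell genes such as MS4A1, CD79A and PAX5 are rows of the table, but centred values cannot show whether they were high. None of these 3 passed the test (differences of 0.42, 0.06 and −0.12). Of 4 T-cell and NK-cell markers and 5 stromal, epithelial and erythroid markers measured, 0 passed. Of 2 myeloid markers measured, CD163 rose (0.64 ± 0.15, limma adjusted p = 0.046, and 0.0899 after trimmed-mean scaling). Summed levels of these lists cannot be formed from centred values, and their part in the results was not tested.

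Chemokines were the gene group with the highest median. Of 15 measured chemokines and chemokine receptors, 7 rose and 0 fell, the median difference was 0.83 against 0.09 for all rows, and 11 were higher in all 3 numbers after trimmed-mean scaling, against 17.6% of all rows. CCL5, a chemokine that attracts T cells, stood at −0.95, −1.04 and −0.96 in the sham libraries and at 0.61, 0.34 and 0.46 in the X-ray libraries. The groups were far apart, and the spread within each was small beside the gap. The difference was 1.45 ± 0.12 (limma adjusted p = 0.00413), and with the replicate block its adjusted p of 0.0718 was the lowest value reached, which 5 other genes shared. CCL17 had sham values of −1.67, −1.26 and −1.68 and X-ray values of 0.00, −0.01 and 0.32. CCL22, which like CCL17 binds the receptor CCR4, had sham values of −0.54, −0.89 and −1.17 and X-ray values of 0.11, −0.01 and 0.44. Neither gene's groups overlapped, and CCL22 spanned the wider range among sham libraries than among X-ray libraries. The rises were 1.64 ± 0.34 for CCL17 and 1.05 ± 0.19 for CCL22, and CCL17 was not past the threshold after trimmed-mean scaling (limma adjusted p = 0.0554). CCL3 rose by 1.41 ± 0.33 and CCL3L1, a near-identical copy that can share its reads, by 1.01 ± 0.19. CCL3 missed the threshold after trimmed-mean scaling (limma adjusted p = 0.0748). The receptors CCR7, which guides lymphocytes to lymph nodes, and CCR10 rose by 0.83 ± 0.15 and 0.62 ± 0.13, and CCR10 missed the threshold after trimmed-mean scaling (limma adjusted p = 0.0673). Without X-ray library 1 none of the 15 was called, and without sham library 3 there were 2.

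Among 17 cytokine genes, IL32, EBI3 and IL16 rose (17.65%, against 4.83% of all rows) and 0 fell. IL32, an inflammatory cytokine without a close relative, had values of −1.69, −1.31 and −1.92 in sham and of 0.82, 0.13 and 1.11 in X-ray libraries. Every X-ray library lay above every sham library, with number 2 showing the smallest step. The difference was 2.32 ± 0.29 (limma adjusted p = 0.011, and 0.0942 with the block). EBI3, the shared subunit of interleukins 27 and 35, rose by 1.68 ± 0.33, with steps between 0.81 in number 2 and 2.40 in number 1, and had a limma adjusted p of 0.0512 after trimmed-mean scaling. IL16, a lymphocyte attractant, rose by 0.54 ± 0.12. Of 22 cytokine receptors, 2 rose (9.09%, against 4.83% of all rows) and 1 fell (4.5%, against 0.518%). The interleukin 27 receptor chain IL27RA (0.51 ± 0.09) and IL15RA (0.52 ± 0.13) rose, and IL4R, the interleukin 4 receptor chain, fell by 0.56 ± 0.12. After trimmed-mean scaling IL16 and IL15RA missed the threshold (limma adjusted p = 0.0587 and 0.0894).

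The promoters of the called chemokine and cytokine genes with the lowest p, up to 4, were CCL5, IL32, CCR7 and CCL22. No window was available for CCL5 and CCR7. Promoter windows of IL32 and CCL22 from RefSeq (GRCh38.p14; 250 bases before to 50 after the annotated start, 5′ to 3′ on the gene's strand) are printed to show what stands upstream of 2 genes that rose, at chr16:3065153-3065452 (plus strand) and chr16:57358533-57358832 (plus strand). Capitals mark matches to the NF-kB consensus, searched on both strands.
IL32: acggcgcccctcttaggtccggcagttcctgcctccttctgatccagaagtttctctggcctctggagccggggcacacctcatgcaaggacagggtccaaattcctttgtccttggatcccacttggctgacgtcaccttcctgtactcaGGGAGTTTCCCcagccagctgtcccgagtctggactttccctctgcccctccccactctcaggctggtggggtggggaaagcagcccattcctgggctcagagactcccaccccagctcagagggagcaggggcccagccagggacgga
CCL22: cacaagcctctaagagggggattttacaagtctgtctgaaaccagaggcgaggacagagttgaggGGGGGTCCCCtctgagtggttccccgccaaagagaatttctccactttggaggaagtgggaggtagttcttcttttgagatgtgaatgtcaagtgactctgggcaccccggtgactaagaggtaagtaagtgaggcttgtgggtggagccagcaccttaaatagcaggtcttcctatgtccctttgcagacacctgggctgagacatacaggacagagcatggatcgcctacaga
The IL32 capitals hold 2 overlapping matches, starting 99 and 98 bases before the start, and the CCL22 match begins 185 bases before it. A match was present in 5.91% of all 35116 promoter windows in the RefSeq table, and it describes letters, not binding. Of the chemokine and receptor genes 6 had a window and 1 of these held a match. Of the cytokine genes 15 had a window and 3 of these held a match. Among genes of the BL41 table with a window the share was 6.28%. These shares describe the lists and are no result of irradiation.

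Other genes of NF-kB and TNF signalling moved singly. Of 32 NF-kB subunits, kinases and inhibitors, TNFAIP3 and TRAF1 rose and 0 fell. That is 6.25% upward, near the 4.83% of all rows, and the list median was 0.11 against 0.09. TNFAIP3, which encodes the inhibitor A20, had sham values of −0.69, −0.88 and −0.67 and X-ray values of 0.21, 0.16 and 0.37. Its groups stood apart by about the same step in each number, and the difference was 0.99 ± 0.11 (limma adjusted p = 0.00831). TRAF1, a signalling adaptor, rose by 0.72 ± 0.10. The inhibitor gene NFKBIA and the subunit RELB did not pass (−0.10 and 0.05). Of 20 TNF ligands and receptors, 3 rose (15%, against 4.83% of all rows). TNFRSF14, which encodes HVEM, rose by 0.53 ± 0.07, the BAFF receptor TNFRSF13C by 0.60 ± 0.10 and TNFRSF13B, which encodes TACI, by 0.52 ± 0.10 (limma adjusted p = 0.0522 after trimmed-mean scaling).

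**Figure D2:**
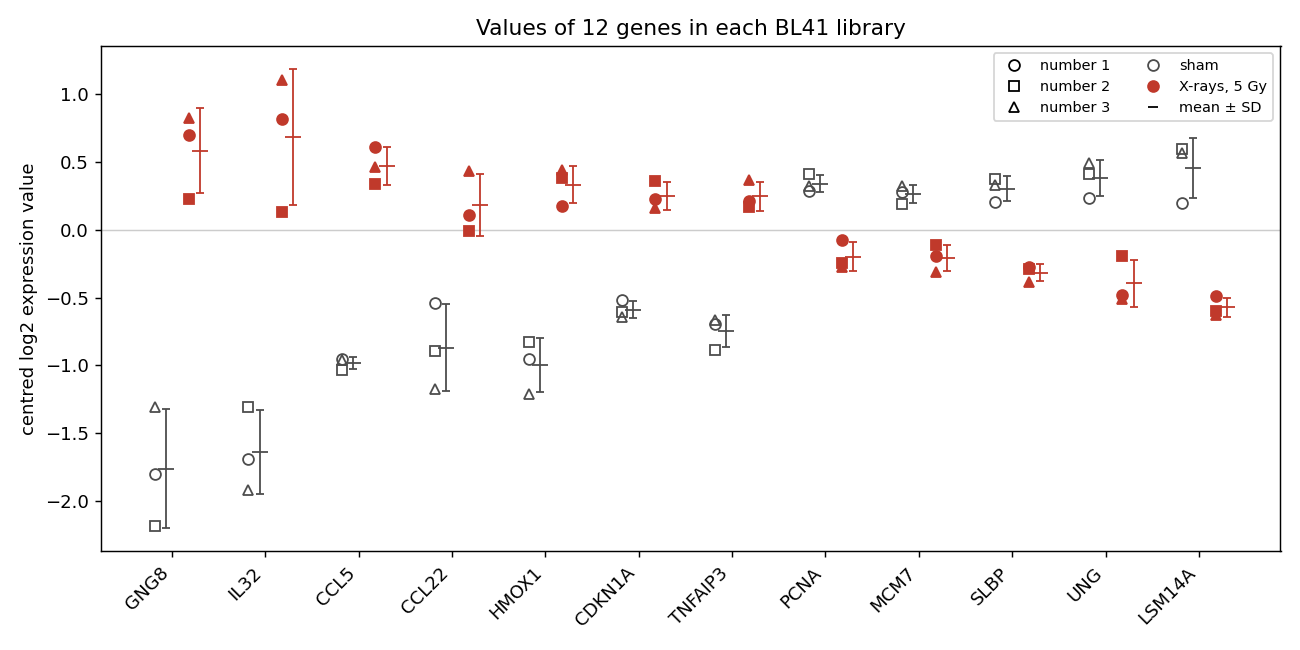
Centred log2 values of 12 genes in each BL41 library, open grey for sham and filled red for 5 Gy X-rays, with the shape giving the replicate number and bars the mean ± SD of 3 libraries. For each gene shown, all 3 X-ray values lie on one side of all 3 sham values, as for CCL5 (0.34 to 0.61 against −1.04 to −0.95) and PCNA (−0.27 to −0.08 against 0.29 to 0.41). The 12 were picked from called genes, so this separation was largely set by the selection.

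The 54 interferon-stimulated genes measured had a median of 0.24, against 0.09 for all rows. After trimmed-mean scaling 20 of them (37.0%) were higher in all 3 numbers, against 17.6% of all rows. Of the 54, 1, IRF5, was called after that scaling. With the values as deposited 5 rose (9.26%, against 4.83% of all rows) and 0 fell. They were the transcription factor IRF5 (0.51 ± 0.09), the oligoadenylate synthase family genes OASL (0.51 ± 0.12) and OAS1 (0.35 ± 0.08), and STAT2 (0.46 ± 0.11) and IRF7 (0.39 ± 0.09). ISG15 did not pass (0.27).

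MHC genes need care because the table holds them more than once. In all, 148 symbols stand on several rows (655 rows), and 492 of those rows are not on the primary assembly, 19 of them called. For the gene lists 1 row was used per gene, that of the primary assembly under the same gene name. On that basis 4 of 15 MHC class II genes rose, HLA-DQA1 (0.74 ± 0.15), HLA-DRB1 (0.67 ± 0.14), HLA-DQB1 (0.63 ± 0.14) and HLA-DOA (0.53 ± 0.10), and 0 were called after trimmed-mean scaling. CIITA, the class II transactivator, and CD74, the invariant chain, did not pass (0.25 and 0.21). Rows of a single gene disagreed, HLA-DPB1 from 0.13 to 1.04 and HLA-DRB1 from 0.36 to 0.84. NEU1, a lysosomal sialidase, had 1.51 ± 0.27 on the row ENSG00000234846 alone, while its primary row ENSG00000204386 was at 0.21 ± 0.11 (limma adjusted p = 0.279) and the other 5 rows lay at 0.24 to 0.25. The high value of NEU1 thus belongs to 1 of 7 rows. Of 23 genes of MHC class I presentation, ULBP2, a ligand of the NK-cell receptor NKG2D, alone rose on that basis (0.59 ± 0.11), and missed the threshold after trimmed-mean scaling (limma adjusted p = 0.0608). Rows left out by that choice were called upward for TAP2, a peptide transporter subunit (1 of its 8 rows), HLA-B (3 of 6) and HLA-C (1 of 7), while the rows used for them did not pass.

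**Figure D3:**
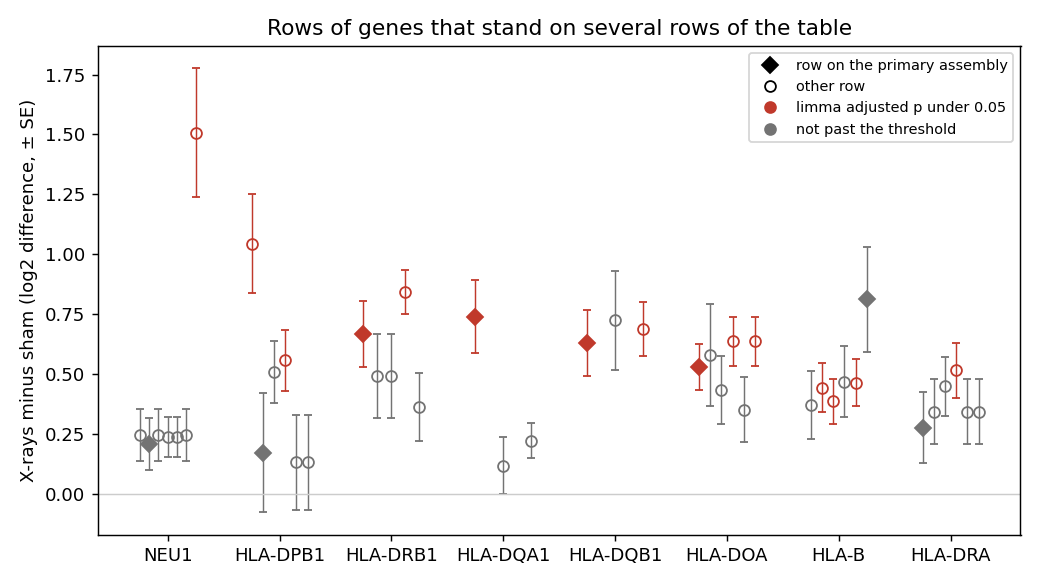
X-rays minus sham (log2 difference, ± SE from limma) for each row of 8 genes that stand on several rows of the table, with diamonds for rows of the primary assembly and red for an adjusted p under 0.05. A single NEU1 row lies at 1.51 and the other 6 between 0.21 and 0.25.

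By count, the lysosome was the list with the most upward calls. The share called upward was larger in some shorter lists, such as chemokines and their receptors (46.7%) and MHC class II genes (26.7%). Of 54 genes of lysosomal hydrolases and membrane proteins, 14 rose (25.9%, against 4.83% of all rows) and 0 fell. The median was 0.28 against 0.09 for all rows, and 27 were higher in all 3 numbers after trimmed-mean scaling, where 17.6% of all rows were. CTSD, which encodes the protease cathepsin D, stood at −0.74, −0.46 and −0.56 in sham and at 0.06, 0.19 and 0.13 in X-ray libraries. The groups did not overlap, and the difference was 0.71 ± 0.14 (limma adjusted p = 0.026, and 0.0554 after trimmed-mean scaling). The other proteases that rose were CTSB (0.59 ± 0.12), CTSK (0.62 ± 0.12) and CTSH (0.48 ± 0.11). Glycan and sulphate hydrolases among the 14 included ARSA, arylsulphatase A (0.72 ± 0.15), and MAN2B1, a mannosidase (0.53 ± 0.12). Lipid hydrolases included the ceramidase ASAH1 (0.37 ± 0.06) and the acid lipase LIPA (0.34 ± 0.07). The phosphatase ACP5 (0.62 ± 0.12), the calcium channel MCOLN1 (0.63 ± 0.11) and the membrane protein SCARB2 (0.46 ± 0.09) also rose. After trimmed-mean scaling 4 of the 54 were called, and without sham library 3 there was 1. Of 19 subunits of the V-ATPase, the proton pump of the lysosome, ATP6V0A1 alone rose (0.67 ± 0.14, limma adjusted p = 0.0508 after trimmed-mean scaling).

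Of 38 autophagy genes, 5 rose (13.2%, against 4.83% of all rows) and 0 fell, with a median of 0.20 against 0.09. Among the 5 were the initiating kinase ULK1 (0.62 ± 0.14), WIPI1 (0.54 ± 0.12), which binds the forming membrane, and ATG9A (0.48 ± 0.11). After trimmed-mean scaling 0 were called upward and 1 downward. MAP1LC3B and SQSTM1, the common autophagosome markers, did not pass (0.12 and 0.31).

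Oxidative stress genes were led by HMOX1, the haem-degrading enzyme haem oxygenase. Its values were −0.95, −0.83 and −1.21 in sham and 0.18, 0.38 and 0.44 in X-ray libraries. All X-ray values lay above all sham values, by 1.33 ± 0.16 (limma adjusted p = 0.011). GSTM2, a glutathione transferase, rose by 0.94 ± 0.09 and was among the rows with the lowest adjusted p under the block (0.0718). Of 51 NRF2, glutathione and thioredoxin genes, 7 rose (13.7%, against 4.83% of all rows) and 0 fell. TXNRD2 (0.42 ± 0.07), GSS (0.36 ± 0.07), NQO2 (0.40 ± 0.08) and PGD (0.32 ± 0.07) were among the 7. The list median was 0.10, close to that of all rows, and NQO1, a common NRF2 target, did not pass (0.39 ± 0.25). After trimmed-mean scaling 3 of the 51 were called, and GSS, NQO2 and PGD missed the threshold (limma adjusted p of 0.0953 to 0.137). Of 37 heat-shock chaperone genes, BAG3, a cochaperone, alone rose (0.93 ± 0.12). Of 42 genes of the integrated stress and unfolded protein responses, the sensor kinase gene ERN1 alone rose (0.35 ± 0.09), a call missed after trimmed-mean scaling (limma adjusted p = 0.101).

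Among genes of cell-cycle arrest after damage, CDKN1A, which encodes p21, stood at −0.52, −0.61 and −0.64 in sham and at 0.23, 0.36 and 0.16 in X-ray libraries. The groups were separate by a similar step in each number, a difference of 0.84 ± 0.09 (limma adjusted p = 0.00869, and 0.0942 with the block). Of 22 measured targets of the transcription factor p53 in arrest and feedback, 2 rose (9.09%, against 4.83% of all rows). BTG1 (0.38 ± 0.09) was the other that rose, and the list median was 0.07. MDM2, a ubiquitin ligase, was at 0.06, −0.02 and −0.94 in numbers 1 to 3 and did not pass (−0.30 ± 0.16). Of 11 p53 targets and relatives in cell death, the death receptor gene FAS rose (0.55 ± 0.13), and BBC3, which encodes PUMA, did not pass (−0.14 ± 0.18). Among caspases, adaptors and their inhibitors, 3 of 23 rose (13.0%, against 4.83% of all rows). They were MLKL (0.82 ± 0.12) and GSDMD (0.41 ± 0.08), executors of lytic cell death, and the adaptor TRADD (0.30 ± 0.07). In the BCL2 family 2 of 17 rose (11.8%), BAD (0.41 ± 0.09) and BCL2L2 (0.55 ± 0.12). The survival gene MCL1 did not pass (−0.19). After trimmed-mean scaling BTG1, FAS, GSDMD, TRADD, BAD and BCL2L2 missed the threshold (limma adjusted p of 0.0554 to 0.201).

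Of 25 damage sensors and checkpoint kinases, CHEK2 rose (0.36 ± 0.09), a share near that of all rows. It missed the threshold after trimmed-mean scaling (limma adjusted p = 0.127) and without any 1 of the 6 sham and X-ray libraries. ATM and CHEK1 did not pass (0.19 and −0.13). Of 28 double-strand break repair genes, limma called 0 (BRCA1 at 0.15). Of 30 excision and mismatch repair genes, UNG and FEN1 fell (6.67%, against 0.518% of all rows). UNG, which removes uracil from DNA, had values of 0.23, 0.41 and 0.49 in sham and −0.48, −0.19 and −0.51 in X-ray libraries. The groups did not overlap, and the difference was −0.77 ± 0.11 (limma adjusted p = 0.0173).

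By count, replication genes made up the list with the most downward calls. The share called downward was larger among the shorter lists of histone supply (20%) and clustered histones (18.2%). Of 47 genes of the replication origin and fork, 8 fell (17.0%, against 0.518% of all rows) and 0 rose. The median was −0.15, and 34 were lower in all 3 numbers after trimmed-mean scaling, against 18.3% of all rows. PCNA, the sliding clamp, had values of 0.29, 0.41 and 0.33 in sham and −0.08, −0.25 and −0.27 in X-ray libraries. MCM7, a subunit of the replicative helicase, had 0.28, 0.19 and 0.32 in sham and −0.20, −0.12 and −0.31 in X-ray libraries. For both genes the groups were separate in every number. The falls were 0.54 ± 0.07 for PCNA and 0.47 ± 0.07 for MCM7 (limma adjusted p = 0.0143 and 0.0175). The licensing factor CDC6 fell by 0.48 ± 0.08, and MCM4 by 0.44 ± 0.11. The flap endonuclease FEN1, the licensing inhibitor GMNN, the helicase cofactor GINS2 and the clamp loader subunit RFC2 fell by 0.30 to 0.36. After trimmed-mean scaling 11 of the 47 were called downward. Without sham library 3 or without X-ray library 1, 0 were called.

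Some genes that supply the fork fell. Of 22 genes of deoxynucleotide supply, 2 fell (9.09%, against 0.518% of all rows). RRM2, the regulated subunit of ribonucleotide reductase, was among them (−0.54 ± 0.10), and TYMS did not pass (−0.38 ± 0.11). Of 15 genes of histone supply, SLBP, CHAF1A (−0.31 ± 0.06) and NASP (−0.27 ± 0.07) fell (20%). SLBP, which binds the stem loop of histone mRNA, had values of 0.20, 0.38 and 0.33 in sham and −0.28, −0.29 and −0.39 in X-ray libraries, a fall of 0.62 ± 0.07 (limma adjusted p = 0.00831). Of 22 clustered histone genes, 4 fell (18.2%, against 0.518% of all rows) and 0 rose, with the lowest list median, −0.43. HIST1H2BK had values of 0.61, 0.65 and 1.04 in sham and −0.24, −0.22 and −0.04 in X-ray libraries, with no overlap (−0.94 ± 0.17). Near-identical copies leave single histone genes uncertain.

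The promoter windows of the 4 genes of these lists with the lowest p are printed because E2F motifs are the best known shared element of replication genes. They lie at chr4:1712270-1712569 (SLBP, minus strand), chr20:5126573-5126872 (PCNA, minus strand), chr7:100101348-100101647 (MCM7, minus strand) and chr17:40287629-40287928 (CDC6, plus strand), from RefSeq on GRCh38.p14, written 5′ to 3′ on the gene's strand. Where the table holds several windows for a gene, the first is shown. Capitals mark any of the 4 motif forms TTTCCCGC, TTTGGCGC, TTTCGCGC and TTTGCCGC on either strand.
SLBP: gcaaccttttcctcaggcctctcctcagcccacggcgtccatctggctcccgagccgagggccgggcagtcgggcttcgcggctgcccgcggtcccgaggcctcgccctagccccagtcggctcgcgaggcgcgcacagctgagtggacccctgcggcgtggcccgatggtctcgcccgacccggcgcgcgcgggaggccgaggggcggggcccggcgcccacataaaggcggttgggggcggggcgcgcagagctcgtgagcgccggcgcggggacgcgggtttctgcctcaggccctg
PCNA: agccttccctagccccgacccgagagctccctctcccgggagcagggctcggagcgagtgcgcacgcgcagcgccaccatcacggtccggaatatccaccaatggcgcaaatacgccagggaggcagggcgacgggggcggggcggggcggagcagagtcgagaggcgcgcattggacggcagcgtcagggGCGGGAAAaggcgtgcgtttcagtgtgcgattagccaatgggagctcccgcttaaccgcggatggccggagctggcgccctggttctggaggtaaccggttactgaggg
MCM7: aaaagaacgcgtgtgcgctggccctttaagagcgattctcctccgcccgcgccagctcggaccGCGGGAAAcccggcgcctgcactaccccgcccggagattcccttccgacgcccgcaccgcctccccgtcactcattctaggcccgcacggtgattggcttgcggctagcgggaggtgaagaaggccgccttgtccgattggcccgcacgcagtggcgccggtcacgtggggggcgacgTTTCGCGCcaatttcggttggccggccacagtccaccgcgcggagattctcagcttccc
CDC6: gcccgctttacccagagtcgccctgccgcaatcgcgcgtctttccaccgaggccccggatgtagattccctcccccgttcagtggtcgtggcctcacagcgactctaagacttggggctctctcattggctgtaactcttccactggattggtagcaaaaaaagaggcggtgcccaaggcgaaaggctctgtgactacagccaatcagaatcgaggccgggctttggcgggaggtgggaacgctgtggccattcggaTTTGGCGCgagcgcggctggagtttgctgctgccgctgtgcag
MCM7 has 2 matches, PCNA and CDC6 have 1 each, and none of these letters is in the SLBP window. The MCM7 window also holds 1 match to the NF-kB consensus, at −155 from the start, which is not in capitals. Of the 47 fork genes 41 had a window, and 19 of those 41 (46.3%) held a match, against 497 of the 8888 genes of the table with a window (5.59%) and 3.31% of all 35116 windows. These lists contain known E2F targets, so the share describes the list and is no result of irradiation.

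Calls among cell-cycle regulators were few. Of 24 regulators of the G1/S transition, TFDP1, the partner of E2F proteins, alone fell (−0.27 ± 0.06), while E2F1 (−0.12) and CCNE2, which encodes cyclin E2 (−0.64 ± 0.17, limma adjusted p = 0.0597), did not pass. Of 32 mitotic kinases, cyclins and components of the anaphase-promoting complex, the spindle kinase AURKB rose (0.48 ± 0.08, limma adjusted p = 0.0571 after trimmed-mean scaling) and FBXO5, which inhibits that complex, fell (−0.43 ± 0.09). Of 40 kinetochore, spindle and condensin genes, limma called 0, with a list median of 0.06.

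Few genes of RNA processing and none of those of translation listed here passed the test. Of 78 splicing genes, SRSF7 (−0.47 ± 0.09) and TRA2B (−0.32 ± 0.08) fell (2.56%, against 0.518% of all rows). After trimmed-mean scaling 45 of the 78 (57.7%) were lower in all 3 numbers, against 18.3% of all rows. LSM14A, a processing body protein, had values of 0.20, 0.59 and 0.57 in sham and −0.49, −0.60 and −0.63 in X-ray libraries. Its groups were separate, with the smallest step in number 1 (−1.02 ± 0.12, limma adjusted p = 0.00893), and the other 45 processing body and mRNA decay genes did not pass. None of 82 cytoplasmic ribosomal protein genes, 81 ribosome biogenesis genes and 16 MYC network genes was called by limma, with MYC at −0.36 ± 0.11 (limma adjusted p = 0.0874) and NPM1 at −0.21. The ribosomal protein genes had medians of 0.00, −0.35 and 0.11 in numbers 1 to 3, so their direction differed between numbers.

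**Figure D4:**
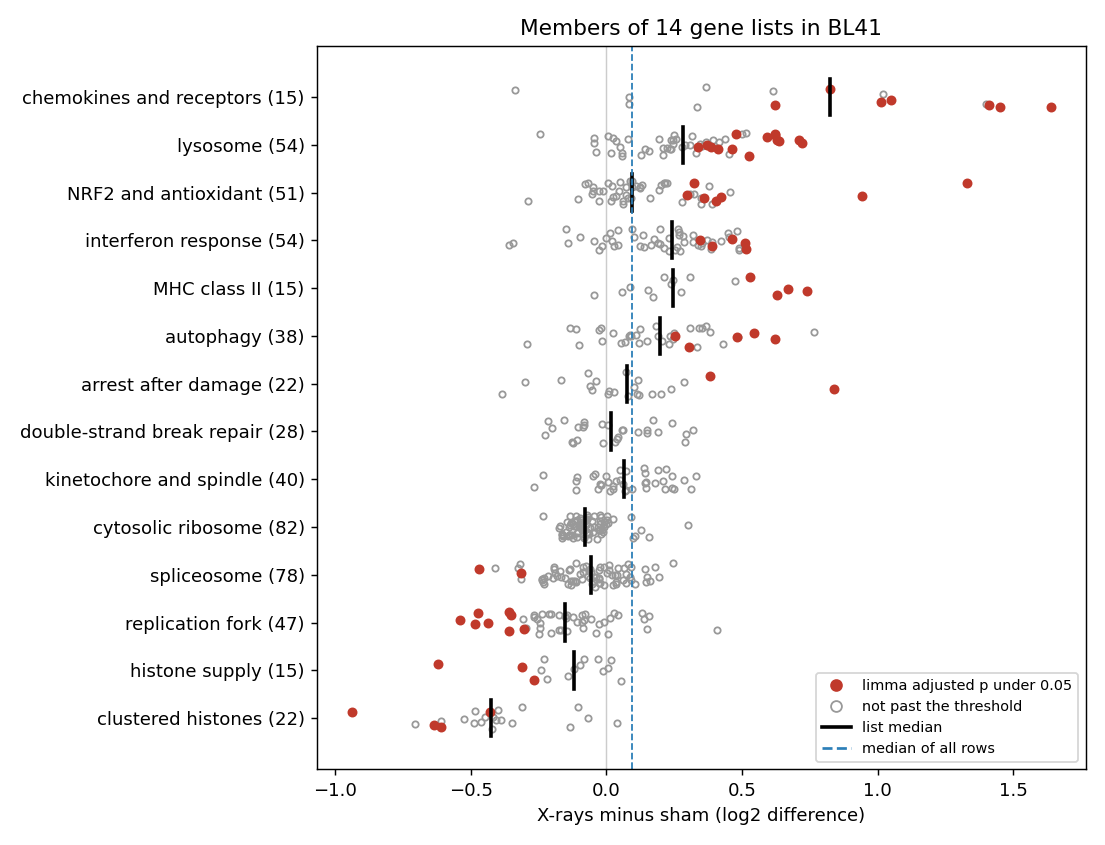
X-rays minus sham (log2 difference) for the members of 14 gene lists in BL41, with red for an adjusted p under 0.05 in limma, grey for the others, black bars for list medians and a dashed line for the median of all rows (0.09). Chemokines have the highest median (0.83) and clustered histones the lowest (−0.43), while no member of the double-strand break repair, kinetochore and ribosome lists is red.

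Among called genes on a single row with a gene symbol (clone and open reading frame names left out), the highest difference belonged to GNG8, a G protein gamma subunit. Its values were −1.80, −2.18 and −1.30 in sham and 0.70, 0.23 and 0.82 in X-ray libraries. The groups were separate by more than 2 in each number (2.34 ± 0.30, limma adjusted p = 0.0122). Of 34 G protein genes, 4 rose (11.8%, against 4.83% of all rows). Besides GNG8 these were GNA12 (0.47 ± 0.08), the receptor kinase GRK5 (0.57 ± 0.09) and RGS9 (0.58 ± 0.13). RGS9 had a limma adjusted p of 0.101 after trimmed-mean scaling. Of the 20 highest such genes, others with known roles were RHOC, a small GTPase of actin and migration (1.16 ± 0.15), the phosphatase DUSP5 (1.14 ± 0.17) and the transcription factor EGR1 (1.05 ± 0.21), both early response genes. The kinase LRRK2 rose by 1.07 ± 0.13, FCRL5, a surface receptor of B cells, by 1.21 ± 0.18, and the adhesion molecule CEACAM1 by 1.00 ± 0.16. ABHD4, a lipid hydrolase, and TECPR1, an autophagy factor, rose by 1.05 ± 0.12 and 1.01 ± 0.17. The rest of the 20, CBLN3, IGKV2D-28 and STAG3, rose by 1.03 to 1.10, and IGKV2D-28 has a near-identical partner in the same locus that can share its reads.

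The lowest difference among such genes was that of ACY3, an aminoacylase, with values of 1.34, 0.90 and 0.92 in sham and 0.05, −0.21 and −0.47 in X-ray libraries (−1.26 ± 0.23). Its groups did not overlap. CNTN5, a neural adhesion molecule, fell by 1.09 ± 0.17, the taste receptor subunit TAS1R3 by 1.01 ± 0.19, the kinase WNK2 by 0.96 ± 0.14 and the potassium channel KCNN3 by 0.97 ± 0.23. PRKAR2B, a regulatory subunit of protein kinase A, fell by 0.93 ± 0.16, and DEPTOR, an inhibitor of mTOR, by 0.81 ± 0.18. FAM163B, SUSD3, DEF8, FAM174B and HIST1H3D made up the 15 with LSM14A, UNG and HIST1H2BK, with falls of 0.64 to 1.05 for these 5. After trimmed-mean scaling CBLN3, STAG3, FAM163B and KCNN3 were not past the threshold.

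**Figure D5:**
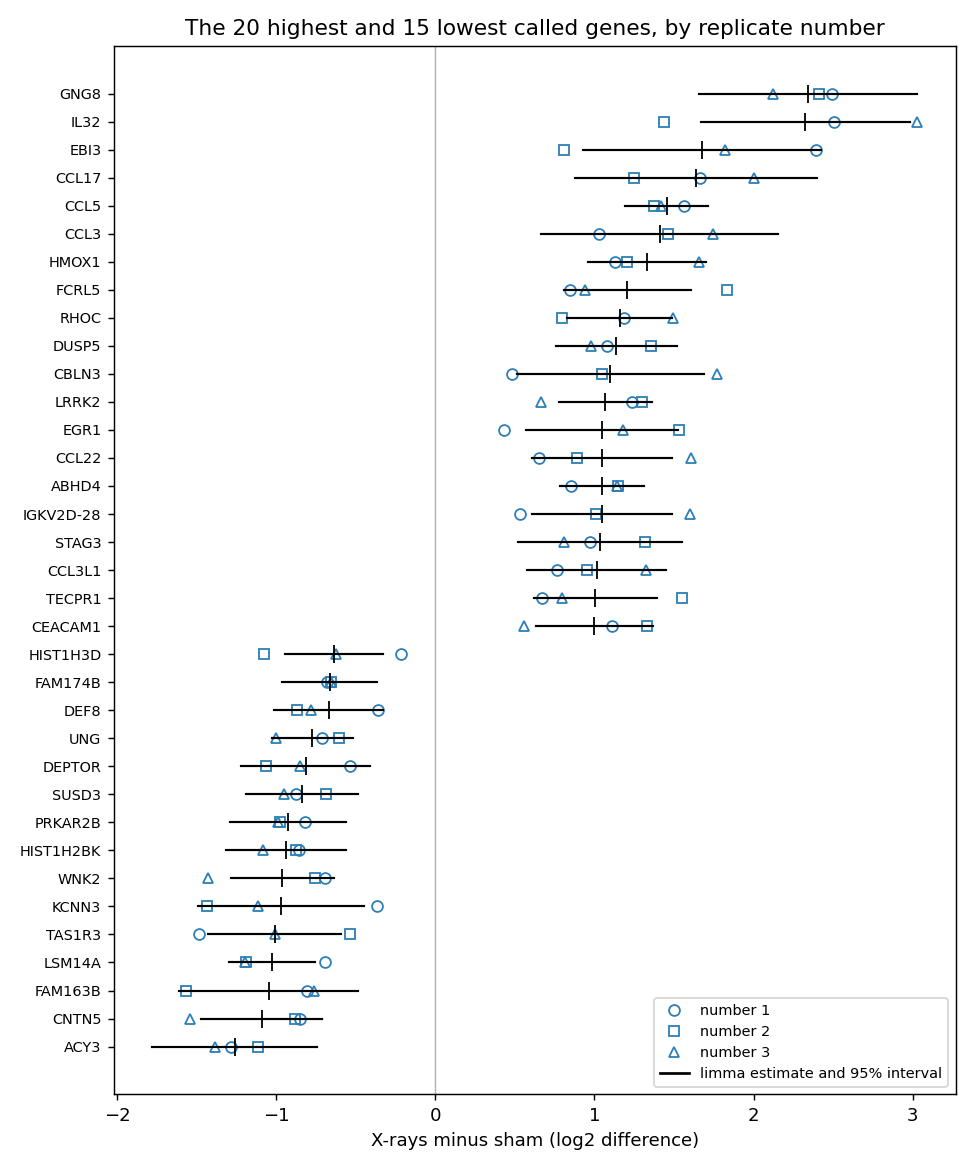
X-rays minus sham (log2 difference) within each replicate number for the 20 highest and 15 lowest called genes with a gene symbol on a single row, with the limma estimate as a tick and its confidence interval as a line. All 3 numbers lie on the same side of 0 for each gene, as they do for all 806 called rows, and GNG8 (2.34) and ACY3 (−1.26) stand at the ends.

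Some genes outside these lists were singled out after their values were seen. LAT, an adaptor of antigen receptor signalling (0.91 ± 0.08), ARHGAP25, a Rac GTPase activator (0.86 ± 0.07), the epoxide hydrolase EPHX1 (0.80 ± 0.08) and the DNA-binding protein ARID3B (0.75 ± 0.07) had limma adjusted p of 0.00413, or 0.00502 for EPHX1, and 0.0718 with the block. CD274, which encodes PD-L1, rose by 0.80 ± 0.12 (limma adjusted p = 0.0191). The kinase JAK3 rose by 0.97 ± 0.15.

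The proton-irradiated BL41 libraries share the sham libraries, so their values are only set side by side. Protons minus sham was 2.46 for GNG8, 2.14 for IL32, 1.28 for CCL5, 1.34 for HMOX1, 0.78 for CDKN1A and −0.52 for PCNA. Tested directly, protons minus X-rays gave 0 calls with limma (0%; 1779 rows at an unadjusted p under 0.05, lowest adjusted p = 0.339), and 0 with the block. CD274 was at 0.13 after protons, and its difference between the beams, −0.67, had a limma adjusted p of 0.345. LSM14A was at −0.48 and FAS at 0.02 after protons.

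In J3D, a mouse lymphoma line given the same dose, X-rays gave 0 calls with limma among 12264 rows (0%; 765 at an unadjusted p under 0.05, lowest adjusted p = 0.441). Of 451 genes that rose in BL41 and matched by symbol, 218 were above 0 in J3D, and of 46 that fell 20 were below 0, while 47% of all 8732 matched genes were above 0 there. Cdkn1a was at 0.17, Hmox1 at −0.02 and Pcna at 0.08. The tables were normalized separately, and the difference between the lines was not tested.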

How the data were processed

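RNA of BL41 cells was sequenced 12 h after sham handling, X-rays or protons, with 3 libraries per group. Per the submitters' processing notes, TopHat2 was used, with hg19 and mm10 as builds; the counting and normalization steps are, in the sources used here, not given. Values that the authors deposited are log2 values (the base was inferred, and is not stated), centred within each number on the mean of 4 libraries, 3 of them analysed here; where 2 values were tied at the lowest (tolerance 1e-06), 55.4 to 60.7% of such genes implied the library not analysed at that same value and 0 below it. Another base would multiply every difference by 1 factor. All value columns were mapped to samples (0 left unmapped).

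Fits used limma 3.58.1 (R 4.3.3, statmod 1.5.0) with trended and robust variance moderation, on all 9 BL41 libraries so that the spread is shared, and Benjamini-Hochberg adjustment over 15069 rows at 0.05. Tables and plots used Python 3.11.15 with pandas 2.3.3, numpy 2.4.6 and matplotlib 3.10.9. The model without the block counts 6 residual degrees of freedom against 4 with it, although the centring had removed a mean per number. Its p-values are therefore too small in general, though some rows had a smaller p with the block. Both fits were also run on simulated data, but the outcome is not reported here and backs neither fit. Whether equal numbers pair the samples cannot be shown: correlations of their deviations were −0.452 to −0.117 and are biased by the centring. An exact permutation test of 3 against 3 cannot go below p = 0.1 and was not used.

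Genes named are the 20 highest and 15 lowest called among single-row gene symbols (no clone or open reading frame names), up to 6 called members of each of 53 gene lists in order of p, and preset defining members; others are said to be chosen after their values were seen. Some genes that these rules name are not reported here. The members of the comparison and the gene lists were chosen with earlier results of these data known. GENCODE v29 served only to pick the primary row, under the same gene name, of symbols on several rows. Alternatives were the replicate block, the 6 sham and X-ray libraries alone, trimmed-mean scaling (30% trimmed at each end), quantile normalization, plain moderation, removal of genes tied at the lowest value, and leaving out each library.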

Additional observations from a re-analysis of the deposited data

How the results depend on the processing

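The count of 806 calls for X-rays against sham was 659 without trend and robust moderation and 918 of 14476 rows without genes tied at the lowest value. It was 334 with trimmed means, 129 with quantile normalization, and 0 with the replicate block, with the 6 sham and X-ray libraries alone (2908 rows at an unadjusted p under 0.05), with these and the block, and with trimmed means and the block. The replicate block with an adjusted p under 0.1, chosen after seeing the data, gave 64. The block and the 6 libraries alone leave fewer residual degrees of freedom. The standard error also changed with the block, for IL32 from 0.29 to 0.36 and for CBX7 from 0.101 to 0.098. The cause of these moves was not tested. Leaving out 1 library gave 0 to 808 calls, with 0 without X-ray library 1, 48 without sham library 3, 143 without X-ray library 2, 233 without sham library 2, 246 without X-ray library 3 and 314 to 325 without 1 proton library. Of the 203 named genes 131 were called, and 0 of these reversed direction under these settings. Settings with 0 calls could show no reversed call, and called genes were selected for a large difference, so a reversal was unlikely. All 131 called ones missed the threshold with the block, and 57 missed it with trimmed means. Counts for protons against X-rays and for J3D stayed at 0 in each setting run for them. Depth is unknown, so what it limits cannot be stated.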

Other observations

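Cytoskeleton, adhesion and channel genes also rose singly. Of 54 actin cytoskeleton genes, 5 rose and 0 fell, among them FLNA, which encodes the cross-linker filamin A (0.69 ± 0.13), the capping protein CAPG (0.74 ± 0.15) and the tropomyosin TPM4 (0.77 ± 0.18). Of 26 adhesion and migration genes, 4 rose, among them the integrin chains ITGB7 (0.74 ± 0.10) and ITGAL (0.46 ± 0.08) and the adhesion receptor ICAM3 (0.28 ± 0.07), while CNTN5 fell. Of 34 ion channel genes, 4 rose, among them the cation channel TRPV2 (0.65 ± 0.09) and the ATP receptor P2RX4 (0.62 ± 0.09).

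Of 54 B-cell and germinal-centre genes, PTPN6, which encodes the phosphatase SHP-1 (0.93 ± 0.18), the inhibitory receptor gene CD72 (0.41 ± 0.09) and LMO2 (0.52 ± 0.13) rose, and CD52 fell (−0.38 ± 0.09). Of 13 plasma-cell genes, IGJ, the joining chain of polymeric antibodies, fell (−0.58 ± 0.12). The germinal-centre regulator BCL6 and the surface enzyme MME did not pass (−0.23 ± 0.16 and −0.43 ± 0.11, the latter at a limma adjusted p of 0.0518). Of 37 glycolysis and hypoxia genes, SLC2A3, a glucose transporter (0.73 ± 0.12), and ENO2, an enolase (0.52 ± 0.12), rose (5.4%, near the 4.83% of all rows). Of 76 respiratory chain and ATP synthase genes, 2 rose (2.63%), among them SDHC (0.35 ± 0.06). Of 45 sterol and fatty acid synthesis genes and 37 proteasome subunits, limma called 0, with medians of 0.12 and 0.15. After trimmed-mean scaling CAPG, TPM4, ICAM3, CD72, LMO2, ENO2 and SDHC missed the threshold (limma adjusted p of 0.0526 to 0.192).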
